A study of Mus musculus with 6 samples.

Results

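The genes described here encode the subunits of the mouse proteasome, its activators and inhibitor, and the chaperones that assemble it. They were taken from the array annotation as every gene symbol of the series Psma to Psmg followed by a number. Of 12393 genes named on the array, 48 matched, and 46 of these are proteasome genes. The other two, Psmc3ip and Psme3ip1, encode a recombination cofactor and a partner protein of Psme3, and were not counted. Where a gene had several probe sets, the one with the highest mean log2 signal stood for it. Of the 46 genes, 45 were bright enough to be tested, and the remaining one was Psma8, the alpha subunit of the testis. Its signal was 14.2 and 96.6 array units in the control arrays, 52.2 and 79.4 after fraction 1, and 70.0 and 46.1 after fraction 2. Psme2 was not analysed, because its probe set carried 2 gene symbols.

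The samples were livers of Swiss-Webster mice on a control diet, or on feed to which 1% of a fraction of Boswellia serrata, the Indian frankincense tree, had been added over 21 days. Fraction 1 was the hexane fraction and fraction 2 the methanol fraction. Each of the 3 groups had 2 Affymetrix arrays, called control 1 and 2, fraction 1 a and b, and fraction 2 a and b. Age, sex and the number of animals behind an array were not given in the sources used here, so the p-values cover no more than the spread among these arrays, which may be technical.

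The proteasome is the protease that degrades most intracellular proteins marked with ubiquitin. Its core particle is a barrel of alpha rings and beta rings, in which Psmb5, Psmb6 and Psmb7 carry the cutting sites. Interferon-gamma replaces them with Psmb8, Psmb9 and Psmb10, which gives the immunoproteasome and favours peptides fit for antigen presentation. The regulatory particle caps the core, binds ubiquitin chains, removes them, and unfolds the substrate with a ring of ATPases. When proteasome activity is short, the transcription factor NFE2L1 is known to raise the subunit genes together. Immunoproteasome subunits are abundant in leukocytes and low in resting hepatocytes.

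Median array signals lay between 139 and 167 array units, and the small number of arrays limits the precision, with a standard error of 0.25 at the median over probe sets for a log2 difference. Hepatocyte markers were bright in all 6 arrays, with Alb between 18755 and 27250 array units. Control 2 had a 3'/5' signal ratio of 3.87 for actin, a measure of RNA integrity, against 2.13 to 2.64 in the other 5 arrays. Control 1 and fraction 2 a were scanned in one batch and shared a chip lot, and the other 4 arrays were scanned in another batch, which held both fraction 1 arrays. Results that move with control 2 or with the scan batch are given below with and without those arrays.

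Fraction 1 was compared with control to ask how proteasome transcripts stood after the hexane fraction was fed. All 14 tested core particle genes outside the immunoproteasome had a mean above control, and so did 16 of 17 regulatory particle genes, where 46.3% of all tested genes did. The 3 immunoproteasome genes were below control. The median log2 difference was 0.32 over the core particle, 0.33 over the regulatory particle and -0.63 over the immunoproteasome, while over all 9202 tested genes it was -0.03. No member passed an adjusted p of 0.05 with limma, where 0.712% of the 14755 tested probe sets did. Among the probe sets that stood for the genes, the smallest adjusted p of a member was 0.105.

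No single gene thus passed, and the counts describe how the members lay together. Of the 45 members, 31 had both fraction 1 arrays above both control arrays, where 18.6% of all tested genes did. Another 3 members, the immunoproteasome genes, had both below, against 23.3% of all tested genes. At an unadjusted p under 0.05 with limma, 15 members were higher, against 5.79% of tested genes, and 3 were lower, against 7.16%. Members were tested as single genes, and the counts over members carry no p because genes are not replicates.

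**Figure D1:**
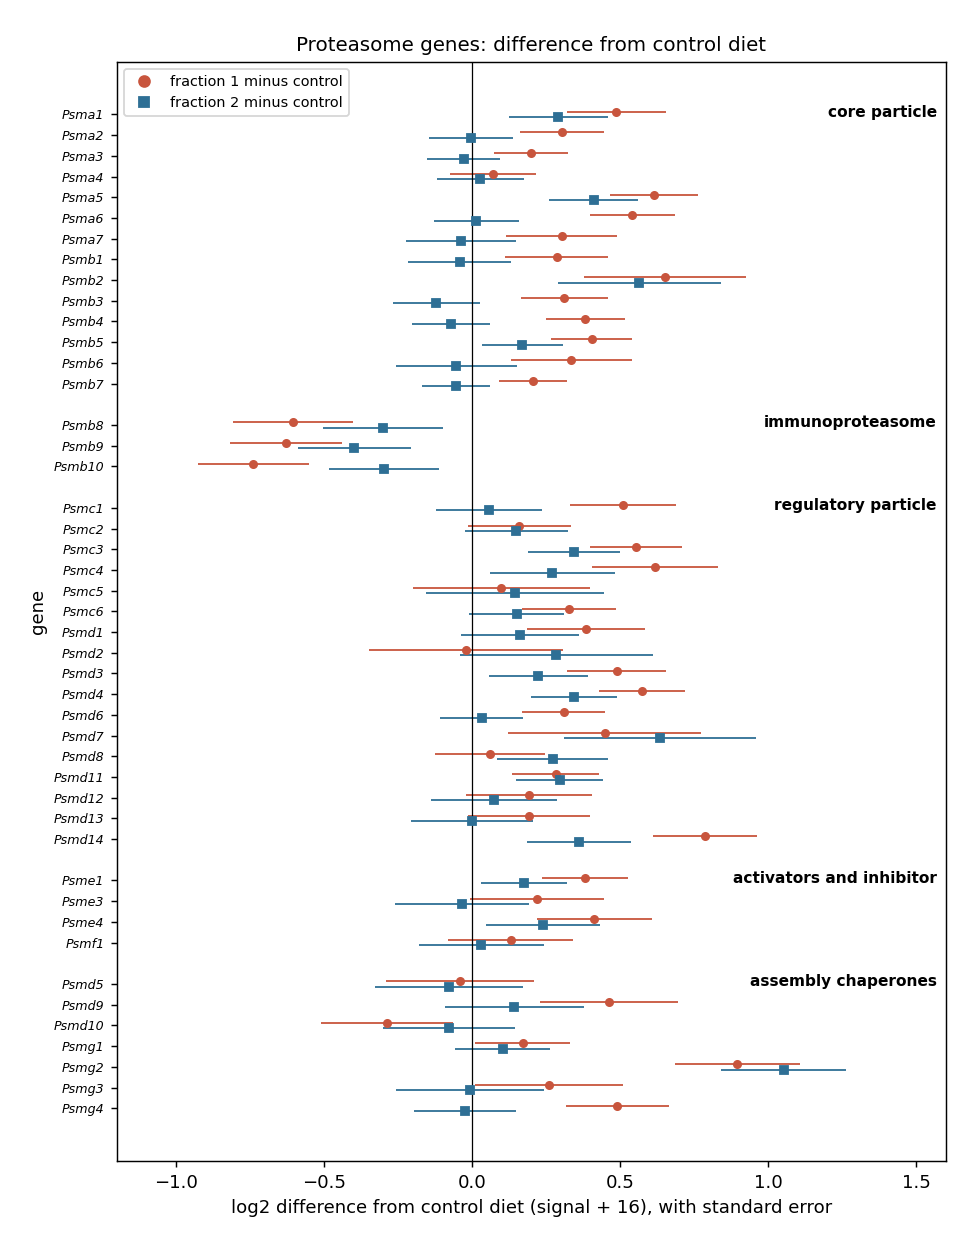
Log2 difference from control diet of each tested proteasome gene, in array signal plus 16 on a log2 axis, for fraction 1 (circles) and fraction 2 (squares), with bars of 1 standard error from limma (n = 2 arrays a group). After fraction 1 the 14 core particle genes lie between 0.07 and 0.65, and the 3 immunoproteasome genes between -0.74 and -0.61.

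The catalytic subunits are where the core particle and the immunoproteasome can be set side by side, since Psmb8 takes the place of Psmb5, Psmb9 that of Psmb6, and Psmb10 that of Psmb7. The 180 bases before the annotated start are shown for 5 genes. They are both members of the first 2 pairs, and Psmd14, the member with the smallest p after fraction 1. Of the remaining pair, Psmb7 had no RefSeq promoter. The stretch of Psmb10 held no match to a searched motif and is not shown. The sequences are RefSeq promoters on GRCm38.p6, printed 5′ to 3′ on the strand of the gene. Capitals mark the match to a searched motif. It is TGACNNNGC, the core of the antioxidant response element that NFE2L1 and NFE2L2 bind, in Psmb5 and Psmb6. It is TTCNNNGAA, the STAT motif, in Psmb8, and CCAAT, read on the opposite strand as ATTGG, in Psmb9 and Psmd14. The stretches are chr14:54617996-54618175 on the minus strand for Psmb5, chr17:34198015-34198194 on the plus strand for Psmb8 and chr11:70525177-70525356 on the plus strand for Psmb6. They are chr17:34187331-34187510 on the minus strand for Psmb9 and chr2:61711514-61711693 on the plus strand for Psmd14.
Psmb5: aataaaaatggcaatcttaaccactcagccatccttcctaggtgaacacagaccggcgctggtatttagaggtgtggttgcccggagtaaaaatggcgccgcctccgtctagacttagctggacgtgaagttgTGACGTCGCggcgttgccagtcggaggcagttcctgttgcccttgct
Psmb8: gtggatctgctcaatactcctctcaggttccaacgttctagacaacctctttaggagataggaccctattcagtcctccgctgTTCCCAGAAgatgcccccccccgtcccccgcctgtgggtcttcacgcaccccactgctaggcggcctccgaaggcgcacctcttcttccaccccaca
Psmb6: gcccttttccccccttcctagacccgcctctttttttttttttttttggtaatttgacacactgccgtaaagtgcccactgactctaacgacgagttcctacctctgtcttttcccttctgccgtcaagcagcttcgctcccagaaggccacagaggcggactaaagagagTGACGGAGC
Psmb9: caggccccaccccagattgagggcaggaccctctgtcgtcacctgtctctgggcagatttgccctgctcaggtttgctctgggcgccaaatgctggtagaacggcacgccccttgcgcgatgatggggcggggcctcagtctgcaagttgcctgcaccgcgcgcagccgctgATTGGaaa
Psmd14: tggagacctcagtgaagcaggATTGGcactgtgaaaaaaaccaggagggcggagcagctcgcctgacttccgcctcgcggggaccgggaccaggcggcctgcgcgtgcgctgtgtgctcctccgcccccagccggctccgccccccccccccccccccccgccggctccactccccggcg

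Over windows of 300 bases, 250 before to 50 after the start, 38 of the 46 genes had a RefSeq promoter, in 40 windows. Both strands were searched, and a window was counted for every motif it held, overlapping or not. TGACNNNGC was found in 6 of the 40 member windows and in 12.4% of all 32851 windows. CCAAT, bound by NF-Y, was found in 32.5% of member windows against 37.4%, and TTCNNNGAA in 7.5% against 8.30%. The interferon-stimulated response element, searched as GAAA repeated after any 2 bases, was found in 12.5% against 3.44%, in the windows of Psmb3, Psmd4, Psmd9, Psme1 and Psmg4. The Psmb10 window held none of these 4 motifs. A match of this kind describes letters and is no measured binding site.

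Psmb5, the chymotrypsin-like subunit, read 3746 and 4140 array units in the controls, 5176 and 5252 after fraction 1, and 4529.7 and 4337 after fraction 2. Both fraction 1 arrays were the highest of the 6, and both fraction 2 arrays lay between them and the controls. The log2 difference from control was 0.40 ± 0.14 (SE, n = 2; limma adjusted p = 0.269) after fraction 1. Its immunoproteasome counterpart Psmb8 read 714 and 753 in the controls, 542 and 418 after fraction 1, and 564 and 621 after fraction 2. The order was the opposite one: the controls were highest and fraction 1 lowest, with no overlap between any 2 groups. Psmb8 stood at -0.61 ± 0.20 after fraction 1 (limma adjusted p = 0.256).

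Psmb6, the caspase-like subunit, read 3947 and 5796 in the controls, 5850.1 and 6225 after fraction 1, and 4106 and 5169 after fraction 2. The controls were far apart, and fraction 1 a lay only just above control 2. The log2 difference of 0.33 ± 0.20 (limma adjusted p = 0.563) was 0.06 without control 1 and 0.61 without control 2. Psmb9, its counterpart, read 499 and 545 in the controls, 316 and 349 after fraction 1, and 377 and 408 after fraction 2. The 3 groups did not overlap, and both fraction 1 arrays were the lowest. Psmb9 stood at -0.63 ± 0.19 after fraction 1 (limma adjusted p = 0.212).

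Psmb7, the trypsin-like subunit, read 8907 and 8789.8 in the controls, 10193 and 10201 after fraction 1, and 8358 and 8678 after fraction 2. The fraction 1 arrays were alone above the controls, by a log2 difference of 0.20 ± 0.11 (limma adjusted p = 0.530). Psmb10, its counterpart, read 1175 and 1118 in the controls, 704 and 657 after fraction 1, and 1025 and 842 after fraction 2. Psmb10 had the lowest log2 difference of all members after fraction 1, at -0.74 ± 0.19, or 0.599 times the control level (limma adjusted p = 0.142).

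**Figure D2:**
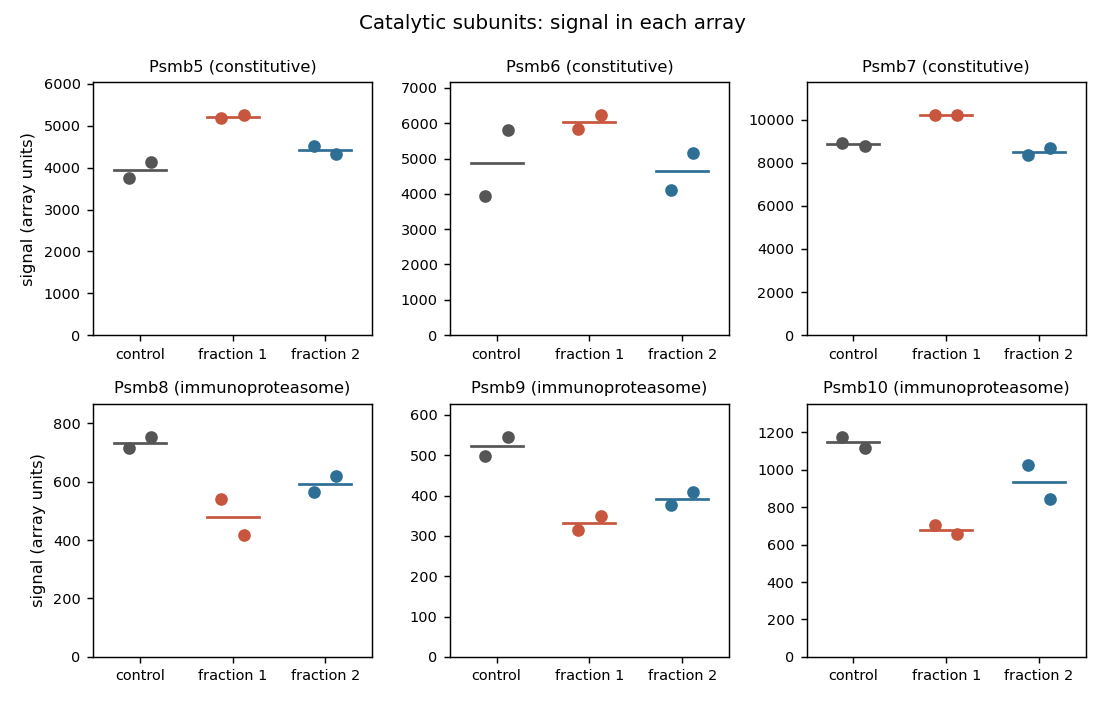
Signal in array units, from 0, of the constitutive catalytic subunits (upper row) and of the immunoproteasome subunit that replaces each (lower row). Points are single arrays and lines are group means (n = 2 a group). In the lower row both control arrays lie above all 4 fraction arrays, and in the upper row both fraction 1 arrays lie above the controls.

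Within each array, the log2 signal of an immunoproteasome gene minus that of its counterpart was taken relative to the mean of the controls. Averaged over the 3 pairs, this difference was 0.09 and -0.09 in the control arrays. It was -0.90 and -1.04 in the fraction 1 arrays and -0.29 and -0.41 in the fraction 2 arrays. The 3 groups did not overlap. These differences are a description, with no test. In bulk liver, fewer cells of a type and less RNA per cell cannot be told apart.

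Markers of the liver's cell types did not all lie the same way, and none passed the limma test. Their levels were summed over the markers on the array, those too dim to test included. The 10 macrophage markers, all tested, summed to 9458 to 10677 array units in the controls, 8504 to 8914 after fraction 1 and 9116 to 9996 after fraction 2. After fraction 1, 8 of the 10 stood below control, 3 of them without overlap (Clec4f at -0.55, Adgre1 at -0.77 and Vsig4 at -0.32), and Marco stood above without overlap at 0.46. Over all tested genes, 23.3% lay below without overlap and 18.6% above, and 46.3% had a mean above control. After fraction 2, 6 of the 10 stood below control, and Adgre1 (-0.33), Marco (-0.33) and Vsig4 (-0.17) did so without overlap, as did 21.6% of all tested genes. Counts of 3 in 10 are near these shares. The 12 lymphocyte markers, 6 of them tested, summed to 960 to 1139, 842 to 1054 and 922 to 1020 array units in the same order of groups, with overlap, and the T cell markers Cd3e, Cd3d, Cd3g and Cd2 were too dim to test. The 5 dendritic cell markers, 4 of them tested, summed to 246 to 620, 470 to 506 and 280 to 480, with overlap, and 3 of the 4 stood above control after fraction 1. The 7 endothelial markers, all tested, summed to 3404 to 3860.5, 2440 to 2910 and 3100 to 3156 array units, and the sums of both fractions lay below the controls. Counted singly, 4 of the 7 stood below control after fraction 1. After fraction 2, 3 stood below and 4 above, with a median log2 difference of 0.06. The 8 stellate cell and fibroblast markers, 7 of them tested, summed to 7856 to 8927, 4931 to 5982 and 6548 to 7776, sums again below the controls. Of the 7 tested, 6 stood below control after fraction 1 and 5 after fraction 2. Without overlap, 4 stood below after fraction 1 and 1 after fraction 2, against 23.3% and 21.6% of all tested genes. The smallest limma adjusted p of these markers after fraction 1 was 0.0523. The 8 hepatocyte markers, all tested, summed to 146309 to 167983, 125643 to 142599 and 116113 to 122601, sums also below the controls. Of the 8, 6 stood below control after fraction 1, with Tat (0.41) and Cps1 (0.10) above, and all 8 stood below after fraction 2. Without overlap, 4 hepatocyte markers stood below after fraction 1 and 7 after fraction 2, against the same 23.3% and 21.6%. The 4 cholangiocyte markers summed to 211 to 246, 184 to 357 and 232 to 255 array units, and only Krt19 was tested. The part of these cells in the immunoproteasome result was not tested.

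The alpha ring gates the core particle. After fraction 1, 6 of its 7 tested genes had both arrays above both controls, where 18.6% of all tested genes did. Psma5 read 2170 and 2324 array units in the controls, 3486 and 3412 after fraction 1, and 3112 and 2871 after fraction 2. All 4 fraction arrays were above the controls, with log2 differences of 0.62 ± 0.15 after fraction 1 (limma adjusted p = 0.133) and 0.41 ± 0.15 after fraction 2 (limma adjusted p = 0.648). Psma6 read 5079 and 5813 in the controls, 7740 and 8084 after fraction 1, and 5913 and 5090 after fraction 2. Only the fraction 1 arrays stood apart, with a log2 difference from control of 0.54 ± 0.14 (limma adjusted p = 0.159). Its probe set is of a type that can match several transcripts, and a second bright probe set of the gene gave 0.34. Psma4 had the smallest difference of the core, at 0.07 ± 0.15: it read 4178 and 4480 in the controls, 4698 and 4389 after fraction 1, and 4725 and 4120 after fraction 2, and all 3 groups overlapped. Psma1 stood at 0.49, Psma2 at 0.30, Psma7 at 0.30 and Psma3 at 0.20.

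The structural beta subunits Psmb1, Psmb2, Psmb3 and Psmb4 all had fraction 1 above both controls, where 18.6% of all tested genes did. Psmb4 read 4933 and 4944 array units in the controls, 6175 and 6723 after fraction 1, and 4618 and 4787 after fraction 2. The 3 groups did not overlap, with fraction 1 highest and fraction 2 lowest, and the log2 difference of fraction 1 from control was 0.38 ± 0.13 (limma adjusted p = 0.272). A second, dimmer tested probe set of Psmb4, of the type that can match several transcripts, did not keep this order. It gave 0.88 after fraction 1, above both controls, and 0.47 after fraction 2, with overlap. Psmb3 read 3944 and 4577 in the controls, 5399.7 and 5159 after fraction 1, and 3729 and 4088 after fraction 2. It stood at 0.31 ± 0.15 after fraction 1 (limma adjusted p = 0.444), and its fraction 2 arrays overlapped the controls. Psmb2 read 1166 and 750 in the controls, 1488 and 1468 after fraction 1, and 1747 and 1108 after fraction 2. Here control 1 and fraction 2 a, the arrays of the same scan batch, were each well above the other array of their group. Psmb2 stood at 0.65 ± 0.27 (limma adjusted p = 0.384), and with the scan batch as a block it was the only member called in any setting, at 0.97 (limma adjusted p = 0.0495).

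The regulatory particle has 17 tested genes, of which 12 had both fraction 1 arrays above both controls and none had both below. Over all tested genes the shares were 18.6% and 23.3%. Psmd14, the lid enzyme that cuts ubiquitin chains off the substrate, read 2084 and 1746 array units in the controls, 3012 and 3614 after fraction 1, and 2583 and 2332 after fraction 2. The groups did not overlap, and fraction 1 reached 1.72 times the control level, a log2 difference of 0.79 ± 0.18 (95% interval 0.38 to 1.19; limma adjusted p = 0.105). Over the alternative settings it ranged from 0.65 to 0.92. Psmd4, the ubiquitin receptor of the base, read 3376 and 3146 in the controls, 4807 and 4908 after fraction 1, and 4435 and 3872 after fraction 2. All fraction arrays lay above the controls, with a log2 difference of 0.57 ± 0.15 after fraction 1 (limma adjusted p = 0.145).

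The ATPases Psmc1 to Psmc6 had a median log2 difference of 0.42 after fraction 1. Of the 6, 5 lay above control without overlap, against 18.6% of all tested genes. Psmc3 read 1957 and 2177 array units in the controls, 2911 and 3166 after fraction 1, and 2598 and 2649 after fraction 2. It stood at 0.55 ± 0.15 after fraction 1 (limma adjusted p = 0.177), with fraction 2 between fraction 1 and control. Psmc1 read 1575 and 1582 in the controls, 2254 and 2251 after fraction 1, and 1865 and 1447 after fraction 2. The fraction 1 arrays were above the other 4, at 0.51 ± 0.18 from control (limma adjusted p = 0.283). Psmc4 stood at 0.62, Psmc6 at 0.33, Psmc2 at 0.16 and Psmc5 at 0.10. A second tested probe set of Psmc2 was about as bright in the controls and is of the type that can match several transcripts. It gave -0.12 after fraction 1, with overlap, and -0.34 after fraction 2, below both controls.

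In the base and lid, Psmd3 stood at 0.49, Psmd7 at 0.45, Psmd1 at 0.38, Psmd6 at 0.31, Psmd11 at 0.28, Psmd12 and Psmd13 at 0.19 each and Psmd8 at 0.06. Psmd2, a scaffold of the base, was the exception at -0.02 ± 0.33. It read 1876 and 1561 array units in the controls, 1730.1 and 1643 after fraction 1, and 3115 and 1398 after fraction 2. A single array, fraction 2 a, was far above the rest, and the other 5 overlapped. The sign of the Psmd2 difference after fraction 1 changed with several settings, among them leaving out control 1 (0.11) or fraction 1 b (0.02).

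The count for the regulatory particle depended on control 2. Without control 2, the array with the high 3'/5' ratio, 12 of 17 regulatory particle genes stood above control after fraction 1 with a median of 0.20, and without control 1 all 17 did, with a median of 0.44. The core particle kept 14 of 14 above control in both cases, with medians of 0.45 and 0.22. The part of RNA quality in these values was not tested.

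The other caps of the core are the activators, which open it without ubiquitin. Psme1, a subunit of the interferon-inducible activator PA28, read 3899 and 3768 array units in the controls, 4816 and 5179.9 after fraction 1, and 4033 and 4645 after fraction 2. Unlike the interferon-inducible catalytic subunits, it lay above both controls in all 4 fraction arrays, at 0.38 ± 0.14 after fraction 1 (limma adjusted p = 0.326). Psme4, the activator PA200, read 1571 and 2051 in the controls, 2668 and 2150.4 after fraction 1, and 2147 and 2098 after fraction 2. Control 1 was the lowest array and fraction 1 a the highest, and the rest lay between 2051 and 2150.4. The difference after fraction 1 was 0.41 ± 0.19 (limma adjusted p = 0.440). The Psme4 probe set is again of the type that can match several transcripts, and the other tested sets of the gene gave 0.40 and -0.27. Psme3, of the nuclear activator, read 282 and 413 in the controls, 400.2 and 399.5 after fraction 1, and 335 and 331 after fraction 2. All of its fraction arrays lay within the range of the controls. A second tested probe set of Psme3 read 413 and 123 in the controls and gave 0.76 after each fraction, with overlapping groups. Psmf1, the inhibitor PI31, read 720.3 and 564 in the controls, 628 and 779 after fraction 1, and 682 and 623 after fraction 2, so that its groups overlapped throughout.

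Core assembly is guided by Psmg1 to Psmg4. Psmg2 read 519 and 744 array units in the controls, 1172 and 1168 after fraction 1, and 1259 and 1356 after fraction 2. All 4 fraction arrays lay above both controls, and the groups of the fractions were close together. It had the highest log2 difference of all members after either fraction, 0.90 ± 0.21 after fraction 1 (limma adjusted p = 0.119) and 1.05 ± 0.21 after fraction 2 (limma adjusted p = 0.321). A second probe set of Psmg2, brighter than the chosen one in the controls and dimmer after both fractions, read 744 and 801 in the controls, 764 and 983 after fraction 1, and 881 and 976 after fraction 2, with log2 differences of only 0.16 and 0.26. The chosen set had the higher mean only through the fraction arrays, so its place as the highest member follows in part from the choice of probe set. Psmg4 read 809 and 814 in the controls, 1103 and 1191 after fraction 1, and 804 and 791 after fraction 2, and only fraction 1 stood above control, at 0.49 ± 0.17 (limma adjusted p = 0.283). Psmg3 stood at 0.26 and Psmg1 at 0.17.

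The base of the regulatory particle is assembled by Psmd5, Psmd9 and Psmd10. Psmd10, also known as gankyrin, was the lowest member outside the immunoproteasome. It read 442 and 334 array units in the controls, 281 and 346 after fraction 1, and 384 and 344 after fraction 2, and its groups overlapped (-0.29 ± 0.22 after fraction 1). Psmd5 read 744 and 699 in the controls, 720.2 and 681 after fraction 1, and 880.4 and 527 after fraction 2, again with overlap. Psmd9 stood at 0.46 after fraction 1, above both controls.

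Several genes had more than 1 tested probe set, which the chosen values do not show. Over 18 genes there were 24 other tested probe sets, and 18 of the 24 had the same sign as the chosen one after fraction 1. For Psma7 the other probe set gave a larger difference, 0.79 against 0.30. Its limma adjusted p of 0.0699 was smaller than that of any chosen probe set. After fraction 2, 11 of 24 agreed in sign.

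Fraction 2 was compared with the same control arrays, so its differences are not independent of those above. No member passed with limma, where 0.108% of tested probe sets did, and the smallest adjusted p was 0.321. At an unadjusted p under 0.05, 3 members were higher (Psmg2, Psma5 and Psmd4), against 3.31% of tested genes, and none was lower, against 3.92%. Of the 45 members, 15 had both fraction 2 arrays above both controls, against 14.6% of tested genes, and 7 had both below, against 21.6%.

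The roles differed in where they lay after fraction 2. The regulatory particle stood above control in 16 of 17 genes, where 43.1% of all tested genes did, with a median log2 difference of 0.22. Of its genes, 8 did so without overlap, against 14.6% of all tested genes. Without fraction 2 a, 10 of 17 stood above control with a median of 0.05, and without control 2, 12 of 17 did with a median of 0.07. The core particle stood above control in 6 of 14, with a median of -0.02, beside -0.05 over all tested genes. Centring each array on its median moved the median of all tested genes to 0.06 and that of the core to 0.10, with 13 of 14 above 0. The core particle therefore has no settled direction after fraction 2. The 3 immunoproteasome genes were below control under both scalings, and without overlap as deposited, at -0.30 ± 0.20 for Psmb8, -0.40 ± 0.19 for Psmb9 and -0.30 ± 0.19 for Psmb10 (limma adjusted p = 0.793, 0.747 and 0.787).

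Psmd7, a lid subunit, had the highest log2 difference of the regulatory particle after fraction 2, at 0.64 ± 0.32 (limma adjusted p = 0.748). It read 617 and 284 array units in the controls, 540.4 and 617 after fraction 1, and 706 and 618 after fraction 2. Only control 2 was low, and without it the difference was 0.10. Psmd13, another lid subunit, had the lowest, with 685 and 574 in the controls, 735 and 702 after fraction 1, and 713 and 551 after fraction 2. Its fraction 2 arrays spanned the controls. A second, dimmer tested probe set of Psmd13 gave 0.52 after fraction 2 and 0.62 after fraction 1, without overlap in both cases.

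**Figure D3:**
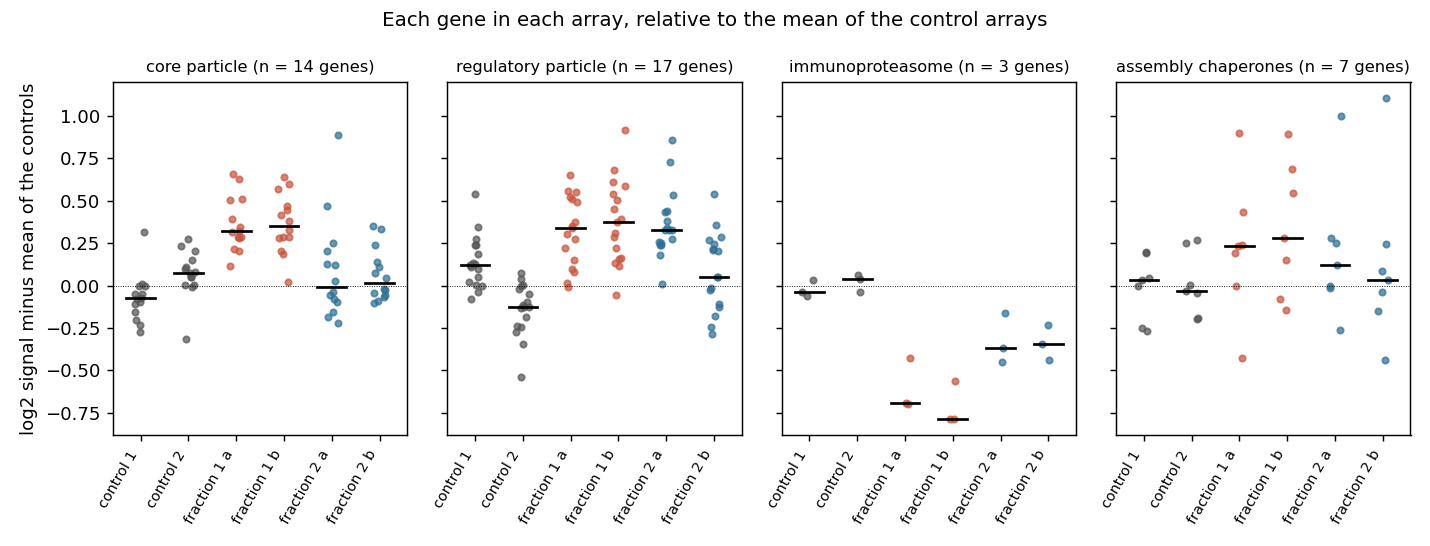
Log2 signal of each gene in each array minus the mean of the control arrays, for the core particle, the regulatory particle, the immunoproteasome and the assembly chaperones. Points are genes and lines are medians over genes. The median of the regulatory particle is 0.33 in fraction 2 a and 0.05 in fraction 2 b, and that of the core particle is 0.32 and 0.35 in the fraction 1 arrays.

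The regulatory particle genes also lay higher in one scan batch than in the other. In 14 of its 17 genes, control 1 was above control 2 and fraction 2 a above fraction 2 b, which in each case sets the batch of those arrays above the other batch. The same held in 1 of 14 core particle genes (Psmb2) and in 24.9% of all tested genes. The chip lot of control 1 and fraction 2 a was the same too, so scan batch and lot cannot be told apart here. The actin 3'/5' ratio followed the batch as well. It was 3.874 in control 2 against 2.215 in control 1, and 2.641 in fraction 2 b against 2.162 in fraction 2 a. RNA quality therefore cannot be told apart from batch and lot in these pairs. Within a batch the difference of fraction 2 from control is 1 array against 1 array and has no replicate check. The regulatory particle median was 0.17 in the batch of control 2 and 0.23 in that of control 1, with 14 and 17 of 17 genes above 0. The immunoproteasome median was -0.40 and -0.33, with all 3 genes below 0 in both. For fraction 1, only the batch of control 2 gives a value, and there the medians were 0.22 for the core particle, 0.44 for the regulatory particle and -0.69 for the immunoproteasome.

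**Figure D4:**
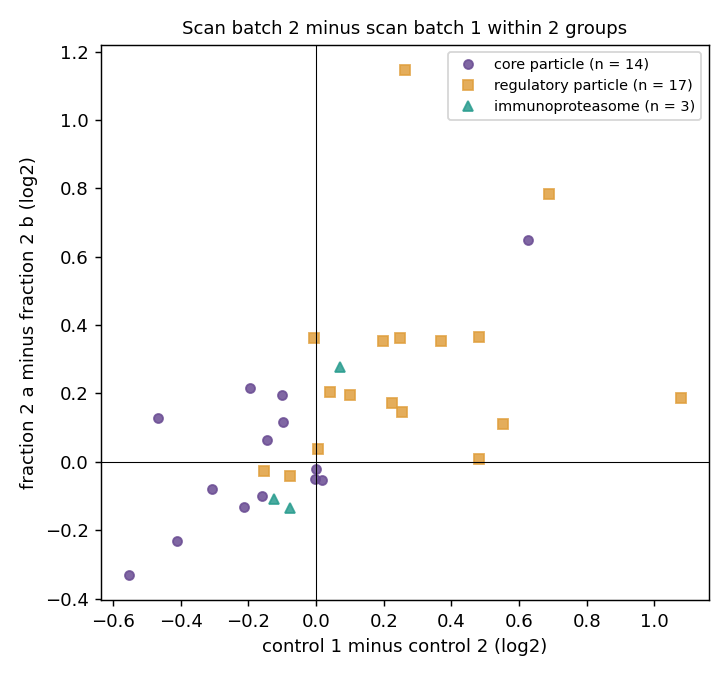
Log2 difference of control 1 from control 2 (horizontal) and of fraction 2 a from fraction 2 b (vertical), with 1 point a gene, so that both axes set one scan batch against the other. Of the 17 regulatory particle genes, 14 lie above 0 on both axes, against 1 of the 14 core particle genes.

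The fractions were compared with each other to ask whether the proteasome genes differed between them. No member passed with limma, where 0.0136% of tested probe sets did, and the smallest adjusted p was 0.430. At an unadjusted p under 0.05, 6 members were higher after fraction 1, against 3.78% of tested genes, and 1 was lower, against 4.17%. Of the 45 members, 26 had both fraction 1 arrays above both fraction 2 arrays, against 26.0% of tested genes, and 6 had both below, against 21.9%.

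Core particle genes made up 12 of the 26. All 14 stood higher after fraction 1 than after fraction 2, as did 52.8% of all tested genes, with a median log2 difference of 0.28, against 0.02 over all tested genes. With arrays centred on their medians it was 13 of 14 and 0.20, beside -0.06 over all tested genes. Psma6 stood at 0.53 ± 0.14 (limma adjusted p = 0.430), Psmb4 at 0.45 ± 0.13 and Psmb3 at 0.43 ± 0.15. Among the assembly chaperones Psmg4 stood at 0.52 ± 0.17 (limma adjusted p = 0.519). In the regulatory particle, 9 genes were higher after fraction 1 without overlap, led by Psmc1 at 0.45, and 2 were lower, Psmd7 and Psmd8. Psmb10 was the member with an unadjusted p under 0.05 in the other direction, at -0.44 (95% interval -0.87 to -0.01; limma adjusted p = 0.608). For Psmb8 the interval ran from -0.77 to 0.16 and for Psmb9 from -0.67 to 0.21.

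Genes that work with the proteasome were counted from lists. In none of them did a gene pass with limma in any comparison. After fraction 2, at an unadjusted p under 0.05, the lists of proteasome assembly, of ubiquitin enzymes and of VCP cofactors had 1 of 14, 2 of 21 and 1 of 15 tested genes higher and none lower, where 3.31% of all tested genes were higher and 3.92% lower. The lists of NFE2L1 (8 tested) and of antigen processing (16 tested) had none in either direction. Between the fractions, 1 gene of proteasome assembly, 2 of the ubiquitin enzymes, 1 of the NFE2L1 list and 3 of antigen processing were lower after fraction 1, and 1 VCP cofactor and 1 of the NFE2L1 list higher, at an unadjusted p under 0.05, where 4.17% of all tested genes were lower and 3.78% higher. The rest of the counts set fraction 1 against control, where 5.79% of all tested genes were higher and 7.16% lower. Of 14 tested genes of proteasome assembly and substrate delivery, 1 was higher at an unadjusted p under 0.05 after fraction 1, and the list median was -0.04. That gene was Zfand5, a proteasome-binding protein, with 1613 and 1238 array units in the controls, 1862 and 2535 after fraction 1, and 1572 and 1570.4 after fraction 2 (0.61 after fraction 1; limma adjusted p = 0.272). Pomp, the chaperone that matures the core particle, read 3471 and 4662 in the controls, 5182 and 5144 after fraction 1, and 4486 and 4648 after fraction 2, or 0.36 after fraction 1 (limma adjusted p = 0.440). Both of its fraction 1 arrays lay above both controls, as in 13 of 14 core particle genes and 18.6% of all tested genes. Over the alternative settings the Pomp difference ranged from 0.15 to 0.57.

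Of 21 tested ubiquitin, E1 and E2 genes, 2 were higher after fraction 1 at an unadjusted p under 0.05, where 5.79% of all tested genes were. Counts of 1 or 2 genes in lists of this size are near that share. The ubiquitin-conjugating enzyme Cdc34 read 2114 and 1833 array units in the controls, 3596 and 3236 after fraction 1, and 3120.0 and 3333 after fraction 2, with all fraction arrays above the controls (0.79 after fraction 1; limma adjusted p = 0.0823). The other was Ube2a at 0.60. Of 15 tested genes of the segregase VCP and its cofactors, 1 was higher, Faf1 at 0.90 (limma adjusted p = 0.101), while Vcp itself stood at 0.08 with overlapping groups. Of 8 tested genes of NFE2L1, NFE2L2 and their control, 1 was higher, the partner factor Mafk at 0.57, and none was lower. The list median was -0.16, with 3 genes above control and 5 below, where 46.3% of all tested genes stood above. Mafg, another partner factor, stood at -0.40, with both fraction 1 arrays below both controls. Nfe2l1 read 669 and 606 in the controls, 522 and 630.1 after fraction 1, and 555 and 603 after fraction 2, and its groups overlapped after fraction 1.

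Of 16 tested antigen processing and interferon-gamma genes, 5 were lower after fraction 1 at an unadjusted p under 0.05 and none was higher, where 7.16% of all tested genes were lower and 5.79% higher, and the list median was -0.21. The interferon regulatory factor Irf1 read 1109 and 1161 array units in the controls, 767 and 759.9 after fraction 1, and 1014 and 988 after fraction 2. Its order was that of the immunoproteasome genes, control above fraction 2 above fraction 1 (-0.56 after fraction 1; limma adjusted p = 0.214). H2-Aa, of the MHC class II molecule of antigen-presenting cells, read 698 and 988 in the controls, 396 and 385 after fraction 1, and 599 and 814 after fraction 2 (-1.06; limma adjusted p = 0.108). With the scan batch as a block it passed, at -1.29. Its invariant chain Cd74 stood at -0.51 after fraction 1 and 0.37 after fraction 2, so that these class II genes did not keep 1 order over the groups. Tap1, the peptide transporter gene, lies head to head with Psmb9: their starts are 226 bases apart on opposite strands, and their promoter windows share 275 bases. Tap1 read 296 and 359 in the controls, 329 and 332 after fraction 1, and 326 and 347 after fraction 2. Its log2 difference after fraction 1 was 0.02 ± 0.20 (limma adjusted p = 0.981), beside -0.63 ± 0.19 for Psmb9, and its sign changed without control 1 (-0.11).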

How the data were processed

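Liver RNA was measured on 6 Affymetrix arrays, 2 per group. The deposited table gave 1 signal intensity per probe set and array, on a linear scale. The authors' summary method is not given in the sources used here. Array means trimmed of 2% at each end were equal within 0.0059%, so values were used as deposited. Experiment files gave scan batch and chip lot. Of 22690 probe sets, 64 controls were left out, and 14755 were tested: those that reached the 40th percentile of an array in at least 2 of the 6. Symbols came from the platform annotation: 20393 probe sets had 1 symbol, 691 several and 1606 none. Of the first, 20364 matched a gene table and 0 changed.

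Values were log2(signal + 16), so differences of dim genes are understated. One limma model (version 3.58.1, R 4.3.3; lmFit, eBayes with a variance trend) took all 6 arrays and had 3 residual degrees of freedom and 5.43 prior ones. P-values are two-sided and were adjusted by Benjamini-Hochberg over all tested probe sets, with a threshold of 0.05. The fit was tested on simulated data. Plots used matplotlib 3.10.9 (Python 3.11.15).

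The members, lists, motifs and markers were chosen with earlier results of these data known. Array values are given for the catalytic subunits and Psme1, the 4 members with the smallest p in each comparison, and the highest and lowest member of each role. In the other lists the rule took Pomp, Nfe2l1, Vcp, Tap1 and the 2 genes with the smallest p, of which a selection is given. Alternatives were other scalings, pseudocounts, filters, batch terms, fits and probe sets, and each array left out in turn.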

Additional observations from a re-analysis of the deposited data

How the results depend on the processing

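Among the settings run, no member was called except Psmb2 after fraction 1 with the scan batch as a block, a setting in which H2-Aa passed too. Of the named genes' values over the alternatives, 479 of 493 for fraction 1 against control, 461 of 476 for fraction 2 against control and 479 of 486 between the fractions kept their direction. The immunoproteasome stayed below control, and lower after fraction 1 than after fraction 2, in all 3 medians of every alternative. The cause of the changes below was not tested. With 2 arrays a group, differences of the size seen here in single members did not reach the threshold, and without 1 array the lone array left in its group is assumed to vary like the others.

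For fraction 1 against control, the count of probe sets called, 105 as reported, was 48 with median centring, 27 with no filter, 12 with no variance trend, 66 in scan batch 1 alone (the arrays other than control 1 and fraction 2 a) and 39 with the groups compared alone. It ranged from 14 without fraction 1 b to 149 without control 1. The core particle median was 0.23 with the scan batch as a block, 0.26 with the chip lot as a block and 0.22 in scan batch 1 alone, and ranged from 0.22 to 0.45 with 1 array left out. The immunoproteasome median was -0.57 with a pseudocount of 64 and -0.69 in scan batch 1 alone, and ranged from -0.79 to -0.57. The count of members called was 1 with the scan batch as a block. Psmd2 was 0.0094 with median centring, 0.33 and 0.42 with the scan batch and chip lot as blocks and 0.11 in scan batch 1 alone, and ranged from -0.15 to 0.11. Tap1 was -0.067, -0.054 and -0.11 with the scan batch block, the chip lot block and scan batch 1 alone, and ranged from -0.11 to 0.15. With 1 array left out, Psmf1 ranged from -0.041 to 0.30 and Vcp from -0.096 to 0.26.

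For fraction 2 against control, median centring gave medians of 0.19 over all members, 0.099 over the core particle and -0.19 over the immunoproteasome. The count of probe sets called, 16 as reported, was 10 with no filter, 2 with no variance trend, 10 with the chip lot as a block, 4 in scan batch 1 alone and 9 with the groups compared alone, and ranged from 3 without either fraction 2 array to 28 without control 1. The immunoproteasome median was -0.23 with the chip lot as a block and -0.40 in scan batch 1 alone, and ranged from -0.37 to -0.30. The median of all members was 0.15 with the mean over probe sets, and ranged from 0.033 to 0.20. With 1 array left out, the core particle ranged from -0.059 to 0.14 and the regulatory particle from 0.053 to 0.35. Median centring turned Psmb6 to 0.061, Psmb7 to 0.060, Psmd13 to 0.11, Psme3 to 0.081 and Psmd5 to 0.036, and quantile normalization turned Psmb7 to 0.027. The chip lot block turned Psmd13 to 0.039, Psme3 to 0.057 and Psmd5 to 0.053. With 1 array left out, Psmb6 ranged from -0.33 to 0.22, Psmd13 from -0.18 to 0.18, Psme3 from -0.30 to 0.23 and Psmd5 from -0.44 to 0.28.

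Between the fractions, the count of probe sets called, 2 as reported, was 0 with quantile normalization, median centring, a pseudocount of 1, no filter, no variance trend, the scan batch as a block and scan batch 1 alone, and 16 with the chip lot as a block. It ranged from 0 to 11 with 1 array left out. The immunoproteasome median was -0.25 with quantile normalization, -0.39 with median centring and -0.39 with the chip lot as a block, and ranged from -0.49 to -0.24. Median centring gave 0.12 over all members and 0.20 over the core particle, the chip lot block gave 0.21 over the core particle, and the mean over probe sets gave 0.13 over all members. Psma4 was -0.043 with median centring and ranged from -0.057 to 0.14. Psmd2 was 0.046 with the scan batch as a block and 0.27 in scan batch 1 alone, and ranged from -0.88 to 0.27. Psmf1 ranged from -0.053 to 0.25. Whether the letters a and b of the fractions pair the arrays is not known. The differences of a from b correlated at r = 0.030 over 14755 probe sets. Fraction 2 a and b differ in scan batch and fraction 1 a and b do not, so this correlation cannot decide it. With the letter as a replicate block, 75 probe sets and 0 members were called, with 0.142 as the smallest adjusted p of a member from limma.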
